A study of Homo sapiens with 8 samples.

Results

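The 10 genes described here belong to the YAP-TEAD branch of the Hippo pathway: the coactivators YAP1 and WWTR1, the DNA-binding factors TEAD1 and TEAD4, the inhibitors LATS2, AMOTL1 and AMOTL2, and the target genes CCN1, CCN2 and ANKRD1. They were chosen by symbol among the 58870 rows of the deposited gene table, each symbol matched 1 row, and all 10 passed the filter on low counts. They were chosen with the difference between ELAPOR1 and control libraries already known, in particular that CCN1 was lower and ANKRD1 higher. Their differences are therefore given as a description, with standard errors and no p-values.

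The data are RNA sequencing counts from 8 libraries of Panc 10.05 cells, a widely used line grown from a human pancreatic ductal adenocarcinoma. In 4 libraries the cells were labelled control, and in 4 they overexpressed ELAPOR1, a membrane protein of endosomes and lysosomes. The labels give neither how the overexpression was achieved, nor what the control cells carried, nor whether the lines were clones or pools, and they do not say that replicates were separate cultures, so the errors and p-values measure the spread between these libraries, which may be technical.

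In the Hippo pathway, the kinases STK3 and STK4 with the scaffold SAV1 activate LATS1 and LATS2, which with MOB1 proteins phosphorylate YAP1 and its paralog WWTR1 (also called TAZ) and keep them out of the nucleus. Unphosphorylated YAP1 and WWTR1 enter the nucleus and bind TEAD factors, which place them on target genes such as CCN1, CCN2 and ANKRD1. AMOTL2 and LATS2 are targets as well as inhibitors, a negative feedback. YAP1 is known to drive growth in pancreatic ductal adenocarcinoma. RNA counts measure neither the phosphorylation nor the location of these proteins.

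Values with ± are the mean and SD of the n = 4 libraries of a group. Library totals ran from 16558600 to 18128757 counts in control and from 13765509 to 17258166 in ELAPOR1 libraries (exact permutation p = 0.143, two-sided). ELAPOR1, listed as KIAA1324, had 1 to 4 counts in each control library and 5910 to 7368 in each ELAPOR1 library, so each library matched its label. All 7 ductal epithelial markers (KRT7, KRT8, KRT18, KRT19, EPCAM, CDH1, MUC1) were tested, and together they took 12009 to 13280 CPM (counts per 1000000 counts of the library, scaled by TMM, the trimmed mean of M-values) in control and 11236 to 11579 CPM in ELAPOR1 libraries. At an edgeR adjusted p-value under 0.05, 3 of them were higher and 3 lower in ELAPOR1 libraries, against 22.6% and 22.1% of all tested genes. The sum follows the most abundant, KRT8 and KRT18, which were both lower. Of the 6 fibroblast markers only COL1A1 was tested, COL1A2, DCN and LUM were at 0 in every library, and the list summed to 2.95 to 4.32 CPM in control and 2.71 to 3.19 CPM in ELAPOR1 libraries. The 3 endothelial markers, with CDH5 at 0, summed to 1.61 to 1.95 CPM in control and 0.576 to 0.865 CPM in ELAPOR1 libraries. Of the 3 leukocyte markers, CD3E was at 0 and PTPRC had at most 1 count, and CD68, a lysosomal protein, made up nearly all of the 81.8 to 87.9 CPM in control and 72.6 to 78.8 CPM in ELAPOR1 libraries. The mitochondrial share of counts was 4.35% ± 0.0607 in control and 4.81% ± 0.0922 in ELAPOR1 libraries (exact permutation p = 0.0286, the smallest this design allows). The part of these differences in the results was not tested.

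The factors that read out the pathway differed little between the groups, as did LATS2, an inhibitor that is also a target. The targets CCN1, CCN2, ANKRD1 and AMOTL2 differed, in both directions. ANKRD1 was 2.63-fold and CCN2 1.53-fold higher in ELAPOR1 libraries, and CCN1 was 1.62-fold and AMOTL2 1.26-fold lower. YAP1, WWTR1, TEAD1, TEAD4, LATS2 and AMOTL1 had log2 fold changes between -0.075 and 0.062. At an edgeR adjusted p-value under 0.05, 4 of the 10 genes were called, 2 higher and 2 lower, against 44.7% of all 13860 tested genes (22.6% higher, 22.1% lower). The same 4 genes had CPM ranges that did not overlap between the groups, as did 39.2% of tested genes. Since the genes were chosen on this contrast, nothing is read from these counts. In bulk RNA, fewer cells expressing a gene and less RNA per cell cannot be told apart.

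**Figure D1:**
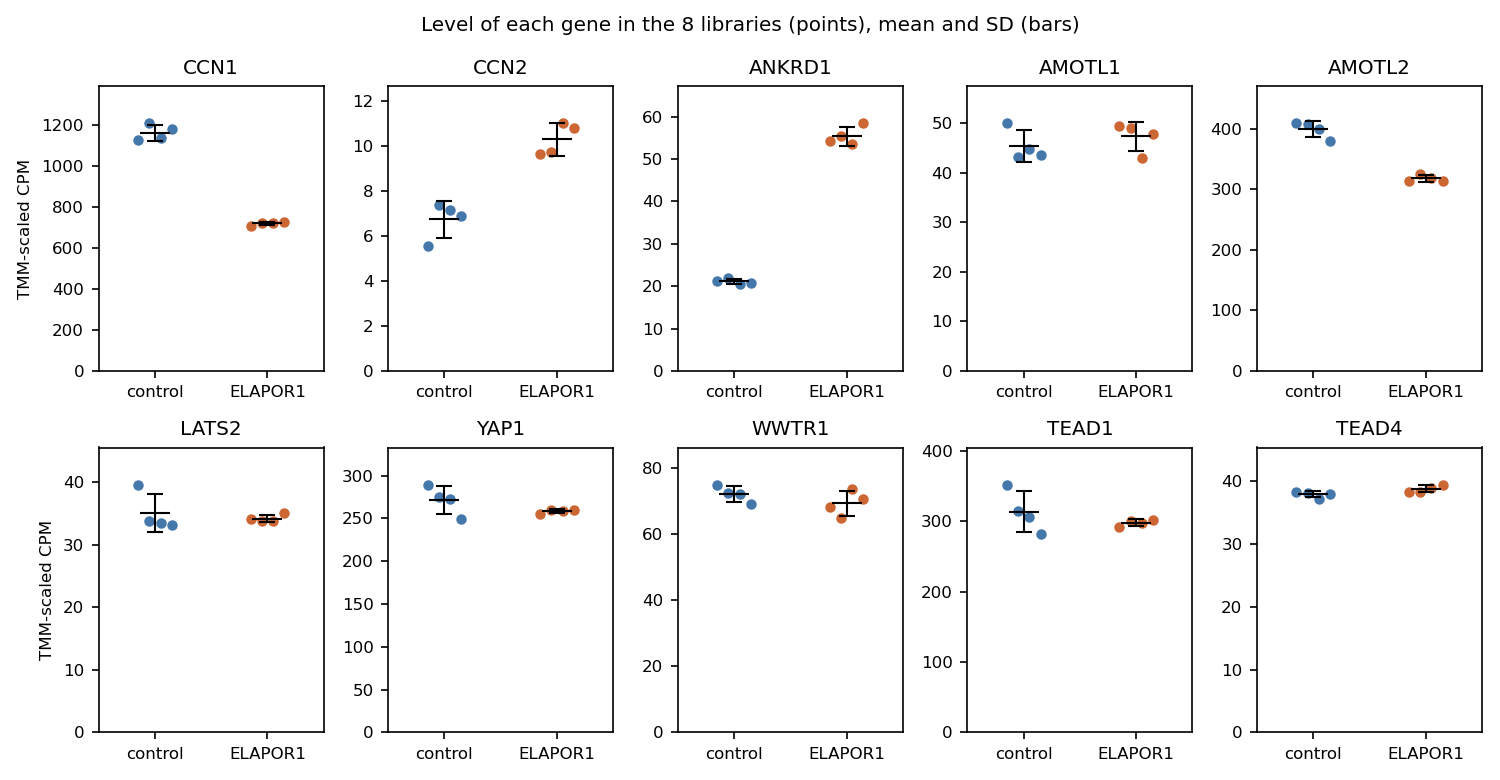
TMM-scaled CPM of the 10 genes in the 4 control (blue) and 4 ELAPOR1 (orange) libraries, each panel on its own axis from 0, with the mean and SD as black bars. The groups are apart for CCN1, CCN2, ANKRD1 and AMOTL2 and overlap for the other 6 genes.

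CCN1 (ENSG00000142871.17, chromosome 1, 85580761 to 85583962, plus strand, GRCh38) encodes a secreted matricellular protein that binds integrins, formerly called CYR61. Control replicates 1 to 4 were at 1128, 1210.2, 1136 and 1179 CPM and ELAPOR1 replicates 1 to 4 at 709.8, 723, 723 and 725 CPM. Every ELAPOR1 library lay far below every control library, and the ELAPOR1 libraries were closer together than the controls. The means were 1163 ± 38.5 and 720.3 ± 7.09 CPM, giving a log2 fold change of -0.69 (SE 0.0275). The change was larger in size than that of 93.9% of tested genes, whose median size was 0.18.

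ANKRD1 (ENSG00000148677.6, chromosome 10, 90912096 to 90921276, minus strand) encodes cardiac ankyrin repeat protein, a transcriptional cofactor of muscle that is induced by stretch. Control replicates 1 to 4 were at 21.1, 21.95, 20.5 and 20.8 CPM and ELAPOR1 replicates 1 to 4 at 54.2, 55.4, 53.4 and 58.4 CPM. All ELAPOR1 libraries were more than 2-fold above all controls. The means were 21.1 ± 0.628 and 55.4 ± 2.20 CPM, giving a log2 fold change of 1.39 (SE 0.0569), larger in size than that of 99.1% of tested genes.

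CCN2 (ENSG00000118523.6, chromosome 6, 131948176 to 131951373, minus strand), or connective tissue growth factor, is the paralog of CCN1 and the most used reporter of YAP activity. It was weakly expressed, with 100 to 187 counts per library. Control replicates 1 to 4 were at 5.54, 7.38, 7.13 and 6.89 CPM and ELAPOR1 replicates 1 to 4 at 9.64, 9.71, 11.0 and 10.8 CPM. Control replicate 1 was the lowest, and the groups did not overlap. The means were 6.74 ± 0.819 and 10.3 ± 0.714 CPM, giving a log2 fold change of 0.61 (SE 0.113), larger in size than that of 91.8% of tested genes. There were 175 ± 19.9 CCN1 counts for each CCN2 count in control and 70.2 ± 4.47 in ELAPOR1 libraries.

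AMOTL2 (ENSG00000114019.14, chromosome 3, 134355874 to 134375479, minus strand), an angiomotin family protein that binds YAP1 and holds it at junctions, is itself a YAP target. Control replicates 1 to 4 were at 409, 408, 401 and 381 CPM and ELAPOR1 replicates 1 to 4 at 313, 326, 319 and 314 CPM. The lowest control library lay above the highest ELAPOR1 library. The means were 399.5 ± 13.2 and 318 ± 5.86 CPM, giving a log2 fold change of -0.33 (SE 0.0300), larger in size than that of 74.6% of tested genes. Its exons overlap the pseudogene RPL39P5, to which a mean of 1.62 counts was assigned in control and 0 in ELAPOR1 libraries.

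**Figure D2:**
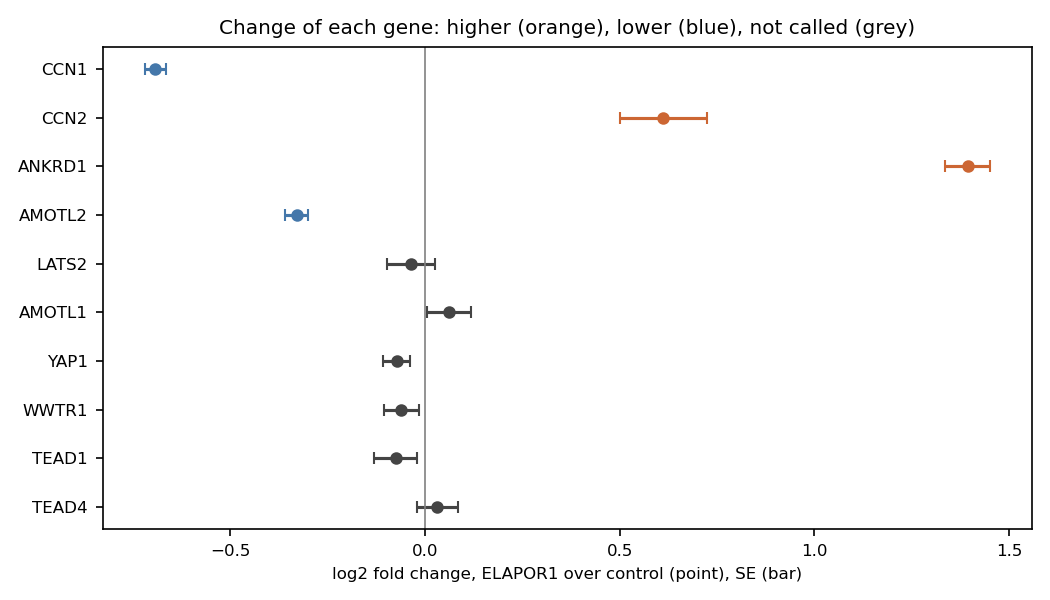
Log2 fold change of ELAPOR1 over control (points) with the standard error of the edgeR fit (bars) for the 10 genes, in orange where called higher, blue where called lower and grey where not called. ANKRD1 stands at 1.39, CCN2 at 0.61, CCN1 at -0.69 and AMOTL2 at -0.33, with the other 6 genes close to 0.

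The ratio of CCN1 to ANKRD1 counts differed between the groups, which follows from the choice of CCN1 as lower and ANKRD1 as higher. There were 55.2 ± 1.37 CCN1 counts for each ANKRD1 count in control (53.4 to 56.7) and 13.0 ± 0.462 in ELAPOR1 libraries (12.4 to 13.5). The summed level of CCN1, CCN2 and ANKRD1 was 1191 ± 39.5 CPM in control and 786 ± 8.80 CPM in ELAPOR1 libraries. CCN1 made up 97.7% of this sum in control and 91.6% in ELAPOR1 libraries, so the sum follows CCN1 and does not show the opposite difference of ANKRD1 and CCN2.

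Because 3 of the 4 genes whose groups did not overlap have a start site in the RefSeq promoter table, the 250 bases before that site were searched for the TEAD motif CATTCC on both strands, and for CATTCCT, its longer form (MCAT) that contains it. Shown are the windows of CCN2 (chr6:131951373-131951622, minus strand), ANKRD1 (chr10:90921088-90921337, minus strand) and the second listed start of AMOTL2 (chr3:134374448-134374697, minus strand), from RefSeq on GRCh38.p14, 5′ to 3′ and ending at the base before the start. Capitals mark matches to the TEAD motif or its longer form, on either strand (AGGAATG is the reverse complement of CATTCCT).
CCN2: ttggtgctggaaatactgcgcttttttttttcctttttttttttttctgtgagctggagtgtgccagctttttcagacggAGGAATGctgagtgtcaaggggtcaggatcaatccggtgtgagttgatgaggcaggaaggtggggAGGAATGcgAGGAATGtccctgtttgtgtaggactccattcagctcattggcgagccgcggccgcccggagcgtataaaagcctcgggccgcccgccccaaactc
ANKRD1: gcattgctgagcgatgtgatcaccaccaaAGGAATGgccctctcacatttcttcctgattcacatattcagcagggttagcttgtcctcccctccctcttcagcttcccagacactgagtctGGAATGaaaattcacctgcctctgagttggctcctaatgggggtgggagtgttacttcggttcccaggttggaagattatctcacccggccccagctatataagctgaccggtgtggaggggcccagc
AMOTL2: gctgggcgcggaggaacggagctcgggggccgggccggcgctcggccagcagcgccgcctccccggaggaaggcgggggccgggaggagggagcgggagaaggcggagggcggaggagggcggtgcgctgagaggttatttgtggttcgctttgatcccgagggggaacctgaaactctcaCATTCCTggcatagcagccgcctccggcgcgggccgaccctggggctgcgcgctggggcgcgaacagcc

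The CCN2 window holds the longer form 3 times, at bases 170 to 164, 105 to 99 and 96 to 90 before the start. The ANKRD1 window holds CATTCC 2 times, at bases 220 to 215 and 128 to 123, and the former is part of the longer form at bases 221 to 215. In AMOTL2 the longer form stands at bases 69 to 63 before the second start, and no match was found before the first listed start. Among the 7 genes with an entry, YAP1 also had a match, at bases 163 to 157, while AMOTL1, LATS2 and WWTR1 had none in their windows. Of all 35116 windows of this length in the table, 11.9% held CATTCC and 3.9% held CATTCCT. The motif thus stands before genes that were higher (CCN2, ANKRD1), lower (AMOTL2) and not called (YAP1). The pattern TGANTCA, a looser form of the AP-1 site TGA(C/G)TCA with any central base, was held by 6.57% of windows. Only ANKRD1 had a match to it, TGATTCA at bases 195 to 189, and its central T departs from the AP-1 site. Of TATA box forms only the exact letters TATAAA (10.7% of windows) were searched, and among the 7 genes they were found only in CCN2. The ANKRD1 window holds the similar letters TATATAAG near its end, which this search did not count. A match to the CArG box of serum response factor (1.16% of windows) was found in none of the 7 genes. CCN1, TEAD1 and TEAD4 have no entry. A match is a description of these letters and not evidence of binding.

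The coactivators were expressed at similar levels in both groups. YAP1 (ENSG00000137693.14, chromosome 11, 102110461 to 102233423, plus strand) was at 289, 275, 273 and 249 CPM in control replicates 1 to 4 and at 255, 259.6, 259 and 259.9 CPM in ELAPOR1 replicates 1 to 4. All ELAPOR1 values lay within the control range, near its lower end, and the log2 fold change was -0.072 (SE 0.0345). WWTR1 (ENSG00000018408.14, chromosome 3, 149517235 to 149736714, minus strand) was at 75.0, 72.6, 72.2 and 69.1 CPM in control and at 68.3, 64.8, 73.5 and 70.5 CPM in ELAPOR1 libraries, with overlapping groups and a log2 fold change of -0.061 (SE 0.0452). There were 3.76 ± 0.105 YAP1 counts for each WWTR1 count in control and 3.74 ± 0.201 in ELAPOR1 libraries.

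Of the TEAD factors, which carry the DNA-binding TEA domain, TEAD1 was the more abundant. TEAD1 (ENSG00000187079.17, chromosome 11, 12674591 to 12944483, plus strand) was at 352, 315, 306 and 282 CPM in control replicates 1 to 4 and at 291, 301, 297 and 303 CPM in ELAPOR1 replicates 1 to 4. The control libraries were spread widely, with a coefficient of variation of 9.22% against 1.65% in ELAPOR1 libraries, and enclosed all ELAPOR1 values. The log2 fold change was -0.075 (SE 0.0541). TEAD4 (ENSG00000197905.9, chromosome 12, 2959330 to 3040673, plus strand) had among the tightest values, 38.3, 38.1, 37.2 and 38.0 CPM in control and 38.3, 38.3, 38.9 and 39.4 CPM in ELAPOR1 libraries. The groups overlapped, and its log2 fold change was 0.031 (SE 0.0529).

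Some of these small differences were called without control replicate 4, or with trends against GC content and transcript length removed. None was called under the other scalings, tests and filters, or without any other library. Without control replicate 4, the lowest control library for both genes, YAP1 was called lower at -0.11 and TEAD1 at -0.12, and 6 of the 10 genes were called. The libraries also differed in trends over all genes against GC content and transcript length. At the GC content and length of TEAD1, the trend was 0.037 in control replicate 1, -0.10 in control replicate 4 and 0.018 to 0.040 in ELAPOR1 libraries (log2, against the mean of all libraries). At those of TEAD4, a short transcript rich in GC, it was -0.032 in control replicate 1 and 0.11 in control replicate 4. TEAD4 stood at 38.3 and 38.0 CPM in these libraries. TEAD1 stood at 352 CPM in control replicate 1, at 282 CPM in control replicate 4 and at 291 to 303 CPM in ELAPOR1 libraries. The part of these trends in the differences was not tested. With these trends removed, an alternative chosen after seeing the data, YAP1 was called lower at -0.13, WWTR1 at -0.11 and TEAD1 at -0.14, TEAD4 stood at 0.12 and was not called, and 7 of the 10 genes were called, with ANKRD1 at 1.42, CCN2 at 0.62, CCN1 at -0.68 and AMOTL2 at -0.35.

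**Figure D3:**
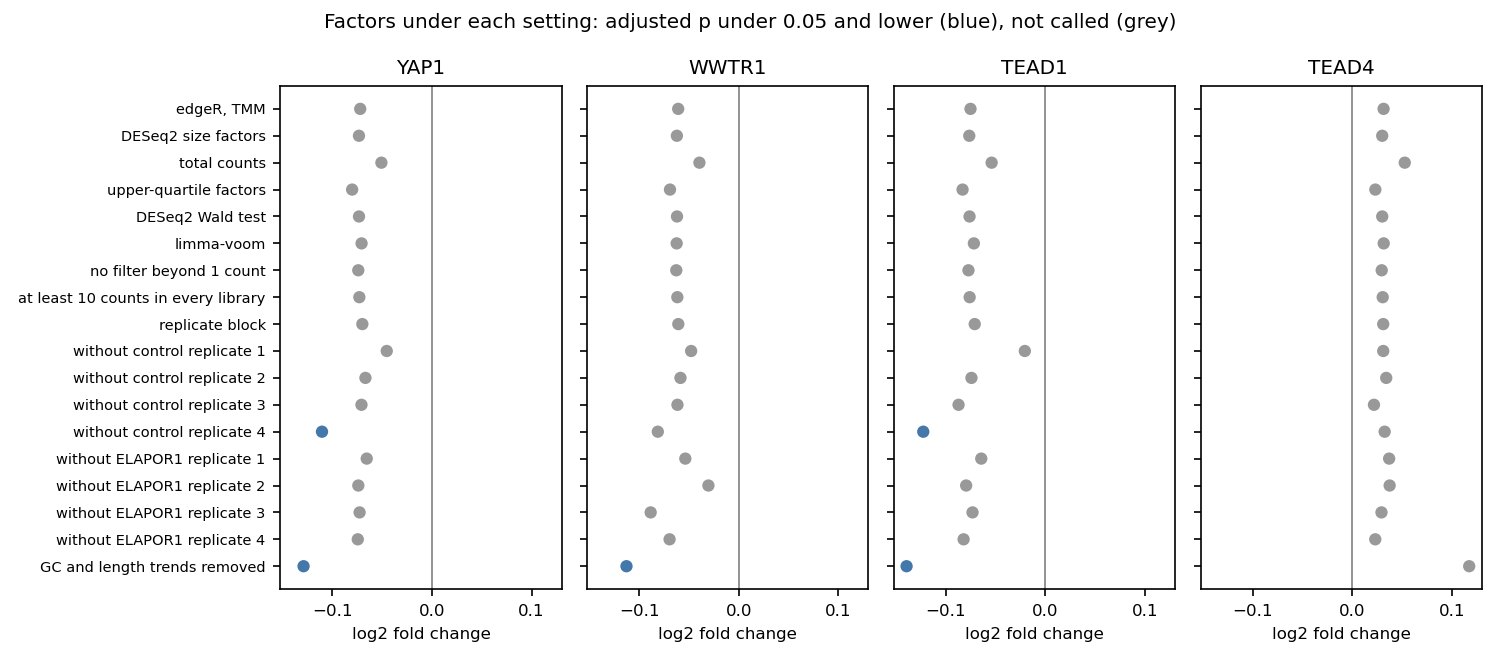
Log2 fold change of ELAPOR1 over control for YAP1, WWTR1, TEAD1 and TEAD4 under each test, scaling, filter and left-out library (rows), in blue where called lower and grey where not called. YAP1 and TEAD1 were called without control replicate 4 and, with WWTR1, after the removal of GC and length trends. TEAD4 was called in none of the settings shown.

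Of the inhibitors other than AMOTL2, LATS2 (ENSG00000150457.9, chromosome 13, 20973032 to 21061547, minus strand), a kinase that phosphorylates YAP1 and WWTR1, was at 39.6, 33.9, 33.5 and 33.2 CPM in control replicates 1 to 4 and at 34.1, 33.9, 33.8 and 35.1 CPM in ELAPOR1 replicates 1 to 4. Control replicate 1 was high and the other 7 libraries lay within 33.2 to 35.1 CPM. The log2 fold change was -0.036 (SE 0.0614), and 0.024 without control replicate 1. AMOTL1 (ENSG00000166025.18, chromosome 11, 94706431 to 94876753, plus strand), the paralog of AMOTL2, was at 50.1, 43.1, 44.9 and 43.7 CPM in control and at 49.5, 49.1, 43.1 and 47.9 CPM in ELAPOR1 libraries. The groups overlapped almost wholly, with a log2 fold change of 0.062 (SE 0.0560).

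Levels of different genes were compared per kilobase of exon. CCN1 was the highest in both groups, at 474 ± 15.7 CPM per kb in control and 293 ± 2.89 in ELAPOR1 libraries, followed by AMOTL2 (66.8 ± 2.21 and 53.2 ± 0.979). YAP1 (43.1 ± 2.62 and 41.0 ± 0.365) and TEAD1 (30.5 ± 2.82 and 28.99 ± 0.480) came next in both groups. In control libraries the order went on with TEAD4, ANKRD1, WWTR1, LATS2, AMOTL1 and CCN2, from 16.7 ± 0.223 down to 2.88 ± 0.350 CPM per kb, and the ranges of no neighbours in this order overlapped. In ELAPOR1 libraries ANKRD1 stood at 28.0 ± 1.11 CPM per kb, above TEAD4, and its range overlapped that of TEAD1. CCN2 remained the lowest at 4.398 ± 0.305, with a range overlapping that of AMOTL1 (4.72 ± 0.292). YAP1 was about 5-fold above WWTR1 per length in both groups (5.02 ± 0.141 in control, 4.99 ± 0.268 in ELAPOR1 libraries). All annotated exons of a gene count as its length, which lowers the level of genes with long or rarely used exons.

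**Figure D4:**
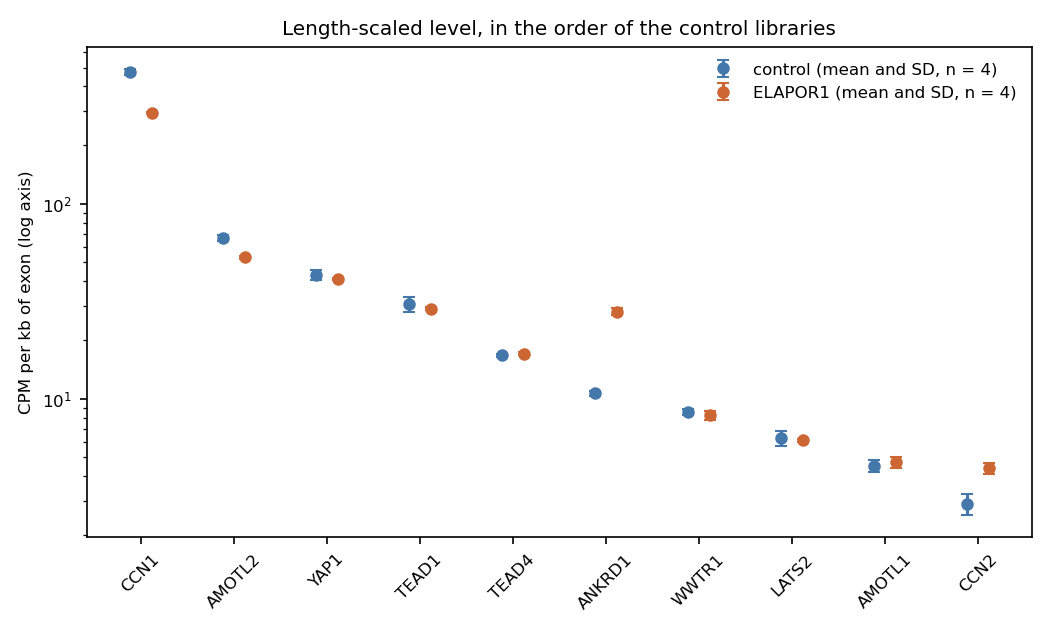
CPM per kilobase of exon (log axis) of the 10 genes in the order of the control libraries, as mean and SD of the 4 control (blue) and 4 ELAPOR1 (orange) libraries. ANKRD1 moves from 10.7 to 28.0 CPM per kb, next to TEAD1, while CCN1 stays the highest at 293 CPM per kb.

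The genes lie on 7 chromosomes, with YAP1, AMOTL1 and TEAD1 on chromosome 11 and AMOTL2 and WWTR1 on chromosome 3. Of the 10 nearest tested genes, 5 on each side, those of CCN1 had log2 fold changes from -0.28 to 0.23 (median 0.098), so CCN1 was lower than each of them. Those of CCN2 ran from -0.63 to 0.35 (median -0.11), and those of AMOTL2 from -1.16 to 0.23 (median -0.030). The neighbours of ANKRD1, among them the interferon-induced IFIT1 and IFIT5, ran from -0.064 to 1.17 (median 0.17). Of the neighbours, 4 were called higher and 0 lower for ANKRD1, and 3 higher and 2 lower for CCN1. For CCN2 0 were called higher and 3 lower, and for AMOTL2 3 higher and 4 lower. Among all tested genes 22.6% were called higher and 22.1% lower.

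The genes whose values over the 8 libraries were most like those of CCN1 were ACAT2, VSIR and FASN. Likeness is the root mean square difference of log2(CPM + 1), each gene centred on its control mean, among the 10703 genes that averaged 5 CPM or more. With this centring it mainly picks genes with a like difference between the groups, and does not show that genes vary together within a group. The log2 fold changes of ACAT2, VSIR and FASN were -0.70, -0.69 and -0.66, against -0.69 for CCN1. ACAT2, a cytosolic enzyme that starts cholesterol synthesis, differed by 0.019, VSIR, an immune checkpoint protein, by 0.035, and FASN, the fatty acid synthase, by 0.036. ACAT2 overlaps TCP1 on the opposite strand, so reads of the pair may be mixed. Most like ANKRD1 were EEF1A2, a translation elongation factor (0.090), TAGLN2, an actin-binding protein (0.097), and TNFAIP3, an inhibitor of NF-kappaB signalling (0.0997). Their log2 fold changes were 1.35, 1.27 and 1.47, against 1.39 for ANKRD1. With a pseudocount of 0.1 the 3 genes for CCN1 were the same, while for ANKRD1 only EEF1A2 of these 3 was.

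Among 20 other genes of the Hippo cascade, all tested, 10 rose and 5 fell in ELAPOR1 libraries at an edgeR adjusted p-value under 0.05, against 44.7% of all tested genes called, and the median log2 fold change was 0.14 against 0.00087 for all tested genes. The largest rises were those of TAOK2, a kinase upstream of STK3 and STK4 (58.8 ± 1.48 to 80.5 ± 2.14 CPM, log2 fold change 0.45, edgeR adjusted p = 1.2e-10), and FRMD6, a membrane scaffold (117 ± 5.94 to 151 ± 4.67 CPM, 0.37, adjusted p = 8.4e-10). The largest falls were those of STK3, the core kinase also called MST2 (143 ± 6.19 to 113 ± 3.61 CPM, -0.34, adjusted p = 4.0e-09), and MOB1B, a LATS cofactor (48.7 ± 2.47 to 38.6 ± 1.81 CPM, -0.34, adjusted p = 4.0e-06). MOB1B shares exon positions with DCK on its strand. TAOK2 lies at 29973641 to 29992261 on chromosome 16, where the 10 nearest tested genes had a median of 0.33 and 8 were called higher. Of the other core genes, the scaffolds SAV1 and NF2 were called lower (-0.15 and -0.11), the kinase LATS1 and its cofactor MOB1A higher (0.23 and 0.15), and the kinase STK4 stood at 0.086 and was not called. The groups overlapped for LATS1 (edgeR adjusted p = 0.0117), and the edgeR adjusted p of NF2 was 0.0115.

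Of the other TEAD factors and vestigial-like (VGLL) TEAD cofactors, 4 of 6 were tested, of which TEAD2 was called higher and VGLL1, VGLL4 and TEAD3 lower, with a list median of -0.21. Of all tested genes 44.7% were called. VGLL1, which binds TEAD in place of YAP1, fell from 9.90 ± 1.08 to 5.30 ± 1.13 CPM (log2 fold change -0.91, edgeR adjusted p = 6.4e-07), and VGLL4, a repressor of TEAD, from 39.9 ± 1.60 to 33.4 ± 1.68 CPM (-0.26, adjusted p = 3.7e-04). VGLL4 overlaps ATG7 on the opposite strand. TEAD3 changed by -0.16 (adjusted p = 4.3e-03). TEAD2 rose from 17.0 ± 1.73 to 19.7 ± 1.70 CPM (0.21, adjusted p = 0.0343), with overlapping groups, and this call was lost with the DESeq2 Wald test (0.0691) and without any of control replicates 1 to 3 or ELAPOR1 replicates 3 and 4 (adjusted p from 0.0508 to 0.182).

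Of 17 other known YAP-TEAD target genes, 14 were tested. Of these 6 rose and 2 fell, against 44.7% of all tested genes called (22.6% higher, 22.1% lower), with a median of 0.0064, and IGFBP3 and FOXF2 were at 0 in every library. PTPN14, called higher at 0.14, is in both this list and that of the Hippo cascade and is counted in each. NUAK2, an AMPK-related kinase, rose from 14.6 ± 1.35 to 19.5 ± 1.75 CPM (log2 fold change 0.42, edgeR adjusted p = 9.9e-05) and GADD45A, a stress-induced growth regulator, from 23.4 ± 1.30 to 30.2 ± 1.19 CPM (0.37, adjusted p = 1.7e-05). ARHGEF17 fell from 79.8 ± 3.01 to 65.9 ± 1.78 CPM (-0.28, adjusted p = 2.3e-06) and CRIM1, a membrane protein that binds growth factors, from 292 ± 15.7 to 242 ± 8.12 CPM (-0.27, adjusted p = 1.0e-07). The most abundant of the list were not called or changed little: F3, tissue factor, stood at -0.011 (1989.9 ± 13.0 and 1974 ± 14.4 CPM), MYOF, a membrane repair protein, at 0.024, and the receptor kinase AXL rose by 0.13 (edgeR adjusted p = 1.0e-04).

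Among the paralogs of the targets, 3 of 6 were tested, and 2 were called, against 44.7% of all tested genes. CCN3 rose from 6.15 ± 0.946 to 7.95 ± 0.249 CPM (log2 fold change 0.37, edgeR adjusted p = 0.0149), a call lost without control replicate 2 (0.28, adjusted p = 0.0780). ANKRD2, a muscle ankyrin repeat protein like ANKRD1, fell from 12.2 ± 1.01 to 8.09 ± 0.671 CPM (-0.60, adjusted p = 1.0e-05), the opposite direction to ANKRD1. ANKRD23, at 0.776 ± 0.444 and 1.30 ± 0.262 CPM, stood at 0.73, the direction of ANKRD1, and was not called (edgeR adjusted p = 0.0862). CCN4, CCN5 and CCN6 had at most 9 counts in any library.

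**Figure D5:**
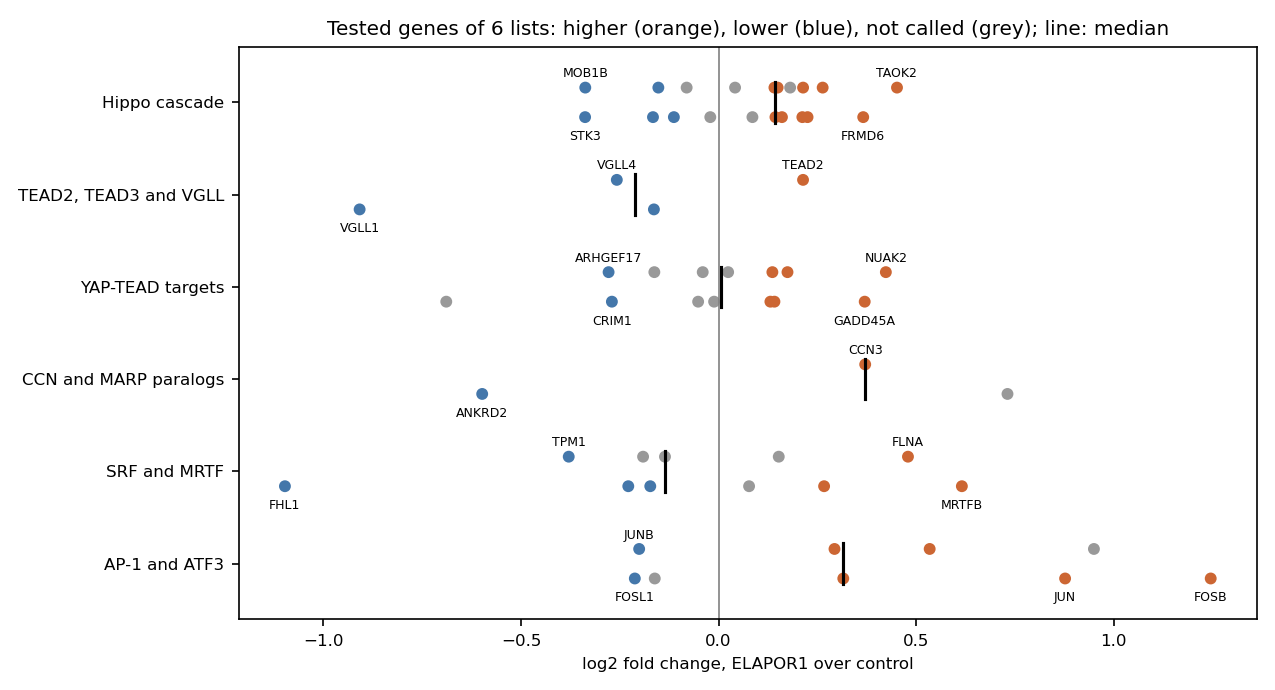
Log2 fold change of ELAPOR1 over control for every tested gene of 6 lists (rows), in orange where called higher, blue where called lower and grey where not called, with the list median as a black line and up to 2 called genes named in each direction. The medians of the AP-1 and YAP-TEAD target lists lie at 0.32 and 0.0064, and their highest genes at 1.25 (FOSB, among AP-1) and 0.42 (NUAK2, among targets).

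CCN1 and ANKRD1 are also known targets of serum response factor (SRF) with its MRTF coactivators, and AP-1 occupies many TEAD enhancers, so both groups were described too. Of 12 SRF and MRTF genes, 11 were tested, 3 rose and 4 fell, against 22.6% higher and 22.1% lower among all tested genes (median -0.14, and 0.12 without ELAPOR1 replicate 1). MRTFB, an SRF coactivator, rose from 41.0 ± 2.24 to 62.9 ± 2.70 CPM (log2 fold change 0.62, edgeR adjusted p = 5.4e-12) and FLNA, filamin A, from 1226 ± 17.8 to 1709.8 ± 25.9 CPM (0.48, adjusted p = 6.4e-17). FHL1, a LIM domain protein, fell from 9.01 ± 0.997 to 4.22 ± 0.359 CPM (-1.10, adjusted p = 1.3e-08) and TPM1, tropomyosin, from 79.4 ± 2.93 to 61.0 ± 4.58 CPM (-0.38, adjusted p = 6.4e-08). SRF itself changed by -0.17 (edgeR adjusted p = 9.2e-04). MRTFB lies at 14071321 to 14266773 on chromosome 16, where 9 of the 10 nearest tested genes were called higher, with a median of 0.37.

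All 9 AP-1 genes were tested, of which 5 rose and 2 fell (median 0.32), against 44.7% of all tested genes called (22.6% higher, 22.1% lower). FOSB rose from 4.84 ± 0.497 to 11.5 ± 0.443 CPM (log2 fold change 1.25, edgeR adjusted p = 5.0e-11) and JUN from 21.4 ± 2.51 to 39.3 ± 2.70 CPM (0.88, adjusted p = 1.1e-11). FOSL1, the most abundant of the list by count, fell from 691 ± 25.4 to 597 ± 4.34 CPM (-0.21, adjusted p = 1.7e-07) and JUNB, which overlaps HOOK2 on the opposite strand, from 149.7 ± 8.23 to 130.1 ± 6.76 CPM (-0.20, adjusted p = 1.3e-04). With GC and length trends removed, FOSL1 stood at -0.13 and JUNB at -0.095, still called.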

How the data were processed

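RNA from 8 libraries of Panc 10.05 cells was sequenced, 4 labelled control and 4 as overexpressing ELAPOR1. The deposited table holds expected counts per gene, estimated by the authors. The submitters' processing notes name cutadapt, STAR, RSEM, DESeq2 and the build hg38; the annotation release and the strand setting are not given in the sources used here. Of nonzero values 15.0% were not whole, and values were rounded before testing. No row lacked a gene.

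Genes were filtered with filterByExpr, scaled by TMM and tested with edgeR 4.0.16 (robust quasi-likelihood, R 4.3.3, limma 3.58.1), with Benjamini-Hochberg adjustment over 13860 genes and a call at an adjusted p under 0.05. The procedure was checked on simulated counts. CPM are TMM-scaled. Lengths, positions and overlaps are from GENCODE 29 on GRCh38, matched by gene ID without version (58597 of 58870). Promoters are from RefSeq. The difference in totals was tested by exact permutation (two-sided), which with 4 against 4 cannot go below 0.0286.

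The members and lists were chosen with earlier results of these data known. The text names all members, up to 2 called genes per list and direction with the largest rise or fall, and 3 genes most like CCN1 and ANKRD1. SAV1, NF2, LATS1, MOB1A, STK4, TEAD3, PTPN14, F3, MYOF, AXL, SRF and ANKRD23 were named after their values were seen. Alternatives were other scalings (DESeq2 size factors, total counts, upper quartile), DESeq2 1.42.0 Wald test, limma-voom, other filters, a replicate block, each library left out, and, chosen after seeing the data, removal of GC and length trends (splines with 5 degrees of freedom).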

Additional observations from a re-analysis of the deposited data

Results flagged for a closer look

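In 4 of 68 groups of 4 libraries, 1 library stood apart from the other 3 by more than Dixon's 95% critical value for 4 samples, where chance gives about 3.4. ELAPOR1 replicate 1 had 709.8 CPM of CCN1, below the 723 to 725 CPM of the other ELAPOR1 libraries and still far below every control library. Control replicate 1 had 39.6 CPM of LATS2, above the 33.2 to 33.9 CPM of the other controls. Control replicate 2 had 17.6 CPM of JUN, below the 22.3 to 23.0 CPM of the other controls. Control replicate 4 had 45.1 CPM of MOB1B, below the 49.7 to 50.3 CPM of the other controls.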

How the results depend on the processing

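The number of called genes was 5557 to 6475 over the alternatives run, against 6193, and 5557 to 6316 when 1 library was left out. Of the 10 YAP-TEAD genes 4 were called in every alternative except 2: 6 without control replicate 4 (4 to 6 over the left-out libraries) and 7 with GC and length trends removed, where YAP1, WWTR1 and TEAD1 were added. The cause was not tested. CCN1 (-0.71 to -0.67), ANKRD1 (1.37 to 1.42), CCN2 (0.52 to 0.66) and AMOTL2 (-0.35 to -0.31) kept direction and call throughout. AMOTL1 (-0.0061 to 0.11) and LATS2 (-0.096 to 0.024) changed sign without a call. Of 27 other named genes, TEAD2 and CCN3 lost their call in 7 values in all. The genes named after their values were seen are not among these 27. The Hippo list median ran from 0.085 to 0.16 and its calls from 11 to 16. No pairing by replicate number was seen: deviations from the group mean correlated at -0.11 to 0.036 between same-numbered libraries over 10703 genes. No control library correlated best with its own number. With 4 libraries per group this cannot exclude a pairing, and the labels do not state one. With a replicate block, 5926 genes and 4 of the 10 were called. CCN2, at 100 to 187 counts, has the largest standard error of the 10 genes.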

Other observations

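VGLL1 and FHL1, lower by 0.91 and 1.10 on the log2 scale, lie near each other on chromosome X, at 136532152 to 136556807 and 136146702 to 136211359. The 10 tested genes nearest to FHL1, which include VGLL1, had log2 fold changes with a median of 0.0080, with 0 called higher and 4 lower. Those nearest to VGLL1, which include FHL1, had a median of -0.10, with 0 called higher and 6 lower. Among all tested genes 22.6% were called higher and 22.1% lower.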
